A study of Macaca mulatta with 28 samples.

Results

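Heavy drinkers (HD, 7 animals) were compared with binge drinkers (BD, 5 animals), which together make up 12 of the 28 male rhesus macaques of the study, and the animals were taken by their drinking category in the labels. Total RNA depleted of ribosomal RNA was sequenced as stranded libraries, 1 per animal, from a dissected brain block that contained the central nucleus of the amygdala (CeA). All 12 animals drank 4% (w/v) ethanol by choice, for 22 hours a day over more than 12 months, after an induction of about 90 days, so that all 28 animals were drinkers. The HD label stands for an intake of 3 g/kg or more on 20% of days or more. The BD label stands for 2 g/kg or more on 55% of days or more together with a blood ethanol of 80 mg/dl or more recorded at least yearly. These are minimums, so the labels do not say how often an HD animal drank less or how far a BD animal went above them. The remaining animals were 10 low drinkers (LD) and 6 very heavy drinkers (VHD).

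The 12 animals came from 4 cohorts, whose mean ages at induction were 8.24 years (cohort 4), 5.63 (cohort 5), 4.18 (cohort 7a) and 5.69 (cohort 7b). Cohort 4 held 1 HD and 3 BD animals, cohort 7a held 2 HD and 1 BD, and cohort 7b held 1 HD and 1 BD. The other 3 HD animals were in cohort 5, which held no BD animal. With cohort as a term, those 3 add to the estimate of spread and not to the folds, so each fold rests on 4 HD and 5 BD animals, and a plain ratio of the group means can differ from it. The LD animals came from cohorts 4, 7a and 7b and the VHD animals from cohorts 5 and 7a. Values given for LD and VHD are not adjusted for cohort.

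The CeA is a mostly GABAergic nucleus whose neurons express peptides such as CRH, dynorphin, enkephalin and somatostatin. It takes part in fear, stress and reward signalling, and in animal models its peptide, GABA and glutamate transmission change with ethanol exposure and withdrawal. A block dissected around it also holds glia, myelinated fibres and neurons of neighbouring nuclei, such as the basolateral amygdala, the striatum and the cholinergic basal forebrain.

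HD libraries held 7412823 to 23705301 reads over gene exons and BD libraries 1910514 to 23917134. BD replicate 1 of cohort 4 was the shallow library, and without it the BD libraries held at least 12873651. Values are normalized reads, the authors' reads scaled by 1 factor per library. A single read was worth 8.02 normalized reads in BD replicate 1 and 0.653 to 2.03 in the other 11 libraries. Of 21 CeA receptor and identity genes listed in the tables, 19 to 21 reached 10 normalized reads in each library, and of 17 CeA neuropeptides 16 or 17 did. No blood gene passed the filter on low values, and 3 of 8 in the table were at 0 in all 12 libraries.

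Levels of neuron marker genes differed widely between libraries, and in bulk tissue fewer cells of a type and less RNA per cell cannot be told apart. The summed level of 13 genes of cortical and basolateral glutamatergic neurons was 21286 and 17703 normalized reads in the HD libraries of cohort 7a, against 5720 in the BD library of that cohort. The summed level of the 8 cholinergic, hypothalamic and basal forebrain genes that passed the filter went the other way. It was 67.4 and 91.6 in those HD libraries against 5152 in that BD library. CHAT, which makes acetylcholine and was named after its values were seen, was at 0.822 and 0 normalized reads there in HD and at 606 in BD. Cohort 7b was closer, at 6698 and 1829 for the 2 sums in HD and 6789 and 2389 in BD. In cohort 4 the glutamatergic sum was 7879 in HD and 12314, 19317 and 6694 in BD, and the cholinergic sum was 461 in HD and 224, 80.1 and 648 in BD. With 4 marker scores as terms over all 28 libraries, limma called 0 of 13022 genes, with a lowest adjusted p of 0.0588. In that fit 1635 genes had an unadjusted p under 0.05, against 950 over the 28 libraries without the scores. The 4 scores were mean levels per library of the cortical and basolateral glutamatergic, striatal, myelin and astrocyte lists. The cholinergic and GABAergic lists were not among them, so that fit does not account for those cells.

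**Figure D1:**
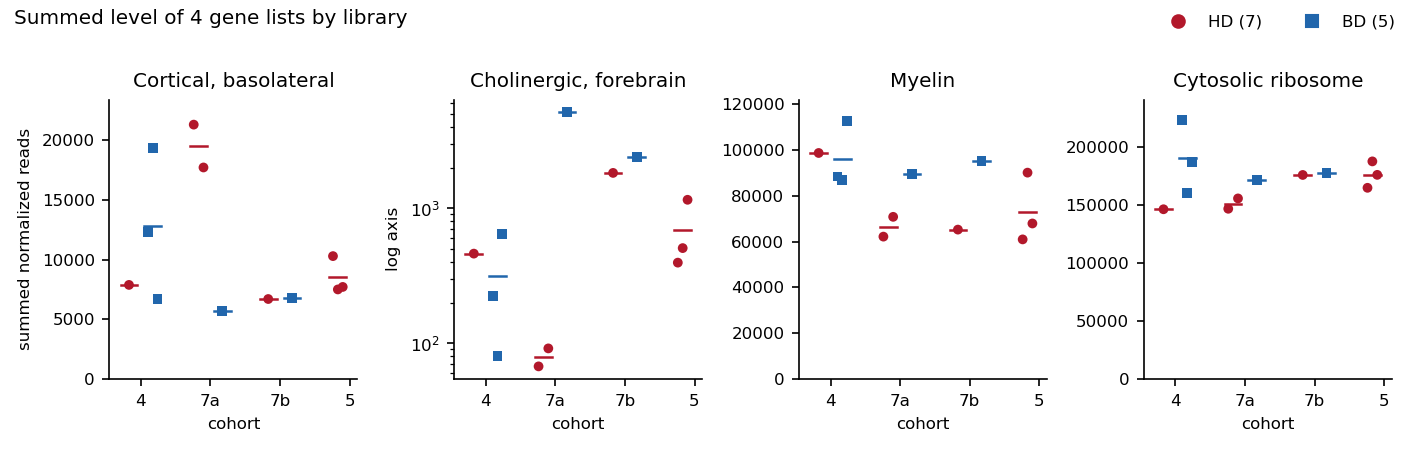
Summed normalized reads of 4 gene lists (vertical axes, the cholinergic one on a log scale) in each library by cohort (horizontal axis), with HD circles left of BD squares and bars at the mean of a category in a cohort. In cohort 7a the 2 HD libraries were high in the cortical and basolateral list (21286 and 17703) and low in the cholinergic list, opposite to the BD library (5720).

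No gene passed the test between HD and BD. By limma with Benjamini-Hochberg adjustment over 12714 genes, 0 genes (0%) had an adjusted p under 0.05, with 0.801 as the lowest. Before adjustment, 756 genes (5.95%) had a p under 0.05, of which 397 (3.12%) were higher and 359 (2.82%) lower in HD. edgeR gave 0 genes past the threshold and 787 unadjusted. DESeq2 gave 1 gene, PTGDS, and 892 unadjusted. Differences beyond 2-fold lay outside the 95% interval for 82.2% of genes and inside it for the others. The genes described next are the ones with the smallest p, and none of their differences is a call.

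The 12 higher genes with the smallest p were led by YTHDC2, an RNA helicase that reads methylated RNA. YTHDC2 had 1333 normalized reads in the HD library of cohort 4, against 890, 940 and 770 in the BD libraries of that cohort. In cohort 7a it had 1017 and 841 in HD and 664 in BD, and in cohort 7b 831 in HD and 639 in BD. Every HD animal lay above every BD animal of its own cohort, while the HD animals of cohort 5 (704, 749 and 718) lay within the BD range. The fitted fold was 1.42 (95% interval 1.21 to 1.67, unadjusted p 0.000553).

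HSD17B13, a hydroxysteroid dehydrogenase of lipid droplets best known from human liver, had the largest fold of the 12, at 4.12 (2.04 to 8.33, unadjusted p 0.00102). It had 134 normalized reads in HD and 32.1, 20.9 and 51.6 in BD of cohort 4, 53.4 and 207 in HD and 22.1 in BD of cohort 7a, and 70.4 in HD and 18.4 in BD of cohort 7b. The log2 difference was 2.01, 2.20 and 1.88 in cohorts 4, 7a and 7b, so it was of like size in all 3. The HD animals of cohort 5 had 43.1, 34.3 and 16.9, of which the first 2 lay inside the BD range and the last below it. The mean was 39.6 ± 27.1 in LD (SD, n = 10) and 46.0 ± 33.8 in VHD (n = 6).

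GPR52, an orphan receptor coupled to cyclic AMP and known from striatal neurons, had 48.6 to 88.9 normalized reads in HD (median 55.9), against 24.1, 49.1, 38.7, 35.5 and 27.1 in BD. A single HD library, at 48.6, overlapped the highest BD library, and the fold was 2.18 (1.42 to 3.33, unadjusted p 0.00198). RLF, a zinc finger protein, had 1174 to 2155 in HD (median 1224) and 1042, 1170, 1146, 1087 and 1091 in BD. ERCC4, the XPF endonuclease of nucleotide excision repair, had 551 to 785 in HD (median 607) and 433, 460, 485, 543 and 498 in BD. For RLF (fold 1.45) and ERCC4 (fold 1.39), all 7 HD libraries lay above all 5 BD libraries. OSBPL6, an oxysterol-binding protein, had a fold of 1.47 and log2 differences of 0.46, 0.72 and 0.48 in the 3 cohorts. LYST, a regulator of lysosome-related organelles, had a fold of 1.32, CSMD3, a large transmembrane protein, 1.44, and the zinc finger genes ZNF189 and ZNF407 1.35 each.

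The difference of WDR52, a protein of cilia and flagella, rested mostly on 2 animals. It had 258 normalized reads in the HD animal of cohort 4 and 249 in that of cohort 7b, and 72.3 to 108 in the other 5 HD animals. The BD libraries had 72.2, 88.1, 73.8, 66.2 and 88.4. The log2 difference was 1.72 in cohort 4, 0.13 in cohort 7a and 1.48 in cohort 7b, with a fold of 2.15. KIAA1731, a centriole protein, had a fold of 1.33.

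**Figure D2:**
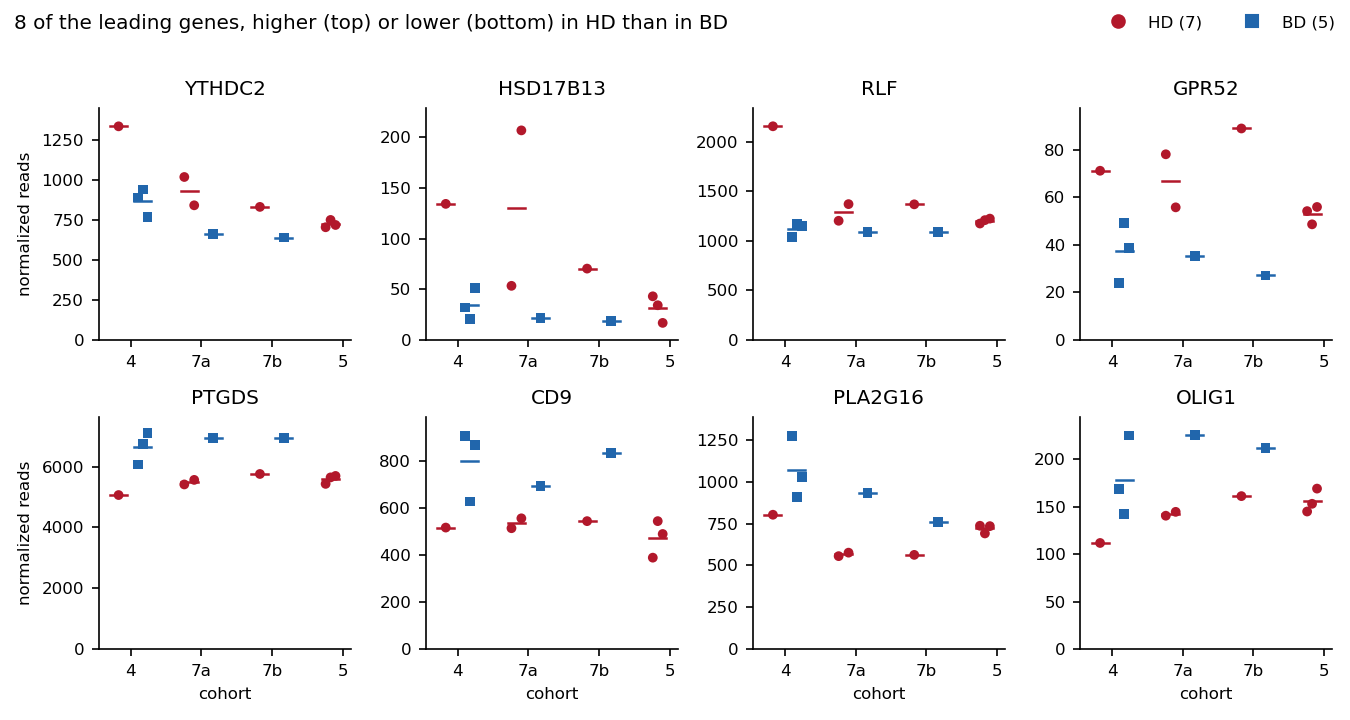
Normalized reads (vertical axes) of 8 of the leading genes in each library by cohort (horizontal axes), with HD circles left of BD squares and bars at the mean of a category in a cohort. YTHDC2, HSD17B13, RLF and GPR52 were higher in every HD than every BD animal of cohorts 4, 7a and 7b, and PTGDS, CD9, PLA2G16 and OLIG1 were lower, with an adjusted p of 0.801 for each.

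The 12 lower genes with the smallest p included 3 that are known from oligodendrocytes or their precursors, PTGDS, CD9 and OLIG1. PTGDS, which makes prostaglandin D2 and is also a carrier protein of the cerebrospinal fluid, had 5063 normalized reads in HD and 6069, 6748 and 7106 in BD of cohort 4. It had 5412 and 5562 in HD and 6940 in BD of cohort 7a, 5756 in HD and 6936 in BD of cohort 7b, and 5430, 5644 and 5691 in HD of cohort 5. All 7 HD libraries lay below all 5 BD libraries, within a narrow span of 5508 ± 234 (SD, n = 7) against 6760 ± 407 (n = 5). The fold was 0.790 (0.696 to 0.896, unadjusted p 0.00174), and the log2 differences were −0.39, −0.34 and −0.27. DESeq2 on recovered reads gave PTGDS a fold of 0.792 and an adjusted p of 0.0153, and over the 29 alternative settings the adjusted p ran from 0.0153 to 0.974. Without adjustment for cohort, the mean of the LD libraries (5604, range 4219 to 6641) lay near HD. That of the VHD libraries (6765, range 5413 to 8299) lay near BD.

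CD9, a tetraspanin of the cell surface, had 388 to 556 normalized reads in HD (median 516) and 906, 627, 866, 691 and 834 in BD. No HD library reached the lowest BD library, and the fold was 0.693 (0.552 to 0.870). OLIG1, a transcription factor of the oligodendrocyte lineage, had 112 to 169 in HD (median 145) and 168, 142, 225, 225 and 212 in BD, so that the ranges overlapped at 142 to 169. Its fold was 0.668 (0.518 to 0.860). PLA2G16, a phospholipase of lipid metabolism, had the smallest p (0.00118) of the lower genes that averaged at least 50 normalized reads, with 555 to 803 in HD (median 691), against 1275, 911, 1029, 933 and 760 in BD and a fold of 0.697.

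SLC25A1, the mitochondrial citrate carrier, had a fold of 0.567, with log2 differences of −0.57, −1.48 and −0.31. The BD animal of cohort 7a, whose cholinergic list sum was the highest of the 12, had 1574 normalized reads, against 547 and 582 in the HD animals of that cohort. VIM, the intermediate filament vimentin, had a fold of 0.645, and MYH14, a non-muscle myosin, 0.663. POR passes electrons to microsomal cytochromes P450, among them CYP2E1, which oxidises ethanol. It had a fold of 0.782, although the group means of 602 ± 117 in HD (n = 7) and 621 ± 59.1 in BD (n = 5) were close, since the HD animals of cohort 5 had 685, 726 and 719. The growth factor PGF had a fold of 0.531, PGM5 0.727, the Src family regulator CSK 0.719 and the kinase MAP2K7 0.761.

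Across all 12 libraries, all 7 HD animals lay above all 5 BD animals for 12 genes (0.0944%) and below them for 17 (0.134%). Several of these were picked out after their values were seen. Among 12714 genes some separate in this way by chance alone, and the number expected was not computed. ANXA1, annexin A1, a glucocorticoid-regulated mediator that dampens inflammation, had 207 to 483 normalized reads in HD and 577, 534, 639, 714 and 614 in BD, a fold of 0.588. NKX6-2, a transcription factor of myelinating oligodendrocytes, had 141 to 225 in HD and 289, 274, 289, 231 and 290 in BD, a fold of 0.695. SIRT2, a deacetylase abundant in myelin, had a fold of 0.859, BAD, a promoter of apoptosis, 0.758, and MGMT, a DNA repair enzyme, 0.737. KSR2, a scaffold of MAP kinase signalling, was among the 12 with HD above BD, at a fold of 1.22.

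SIRPB1, a signal-regulatory membrane receptor of myeloid cells, was also picked out after its values were seen. It was at 0 normalized reads in 4 HD libraries and at 0.822, 1.30 and 48.6 in the other 3, against 64.1, 70.0, 42.2, 52.7 and 38.5 in BD. The single HD library at the BD level was replicate 3 of cohort 5. LD libraries ran from 0 to 99.5 and VHD libraries from 0 to 94.9, so both levels occurred in those categories too. The fitted fold was 0.0217 with an unadjusted p of 0.000238 and an adjusted p of 0.801 by limma. By limma, the adjusted p was 0.0355 with only the 9 libraries of cohorts 4, 7a and 7b and 0.0406 without HD replicate 3. Both settings leave out HD replicate 3, the single HD library at the BD level, and the fold stayed at 0.0217. In both, SIRPB1 passed the filter on low values only through the 5 BD libraries, where it was high. These 2 values are therefore no support for a difference.

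Within cohorts, every HD animal lay above every BD animal in each of cohorts 4, 7a and 7b for 513 genes (4.03%) and below for 558 (4.39%). Without the shallow BD replicate 1 these counts were 600 (4.72%) and 725 (5.70%). An exact two-sided permutation test within cohorts has 24 arrangements and cannot go below a p of 0.0833. No p is therefore given for single genes on that basis. Of the 24 arrangements, 1 puts every HD animal above and 1 every HD animal below, so chance gives shares near 4.03% and 4.39%. Without BD replicate 1 there are fewer arrangements and the share from chance is larger. The higher counts in that setting therefore cannot be read as a clearer separation.

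The comparison was repeated without BD replicate 1. Of 12690 genes, 0 (0%) passed by limma, the lowest adjusted p was 0.798, and 735 genes (5.79%) had an unadjusted p under 0.05, 350 higher and 385 lower. The leading genes moved little, with folds of 1.43 for YTHDC2, 4.11 for HSD17B13, 2.04 for GPR52, 0.779 for PTGDS, 0.712 for CD9 and 0.718 for PLA2G16. CCBE1, a secreted factor of lymphatic vessel growth, entered the 6 leading higher genes with a fold of 3.29, and it had 170 and 224 normalized reads in the HD libraries of cohort 7a against 30.7 in BD. OGN, a small proteoglycan of connective tissue, with a fold of 0.421, the peptidase CPQ with 0.617 and the ribosomal protein RPS9 with 0.748 entered the lower ones.

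Differences followed gene length. When genes were cut into 5 equal bins by summed exon length, the shortest bin (75 to 1608 bases) had 32.5% of its genes higher in HD, and its median log2 difference was −0.10. In the longest bin (4767 to 82612 bases), 69.0% were higher and the median was 0.09. In cohort 4 the median ran from −0.22 in the shortest to 0.22 in the longest bin. It was −0.04 and −0.05 in cohort 7a and 0.01 and 0.04 in cohort 7b, so the trend with length was present in cohort 4 and near 0 in the other 2. The longest minus shortest level, centred over libraries on the log2 scale, was 0.28 in HD replicate 1, the HD animal of cohort 4, and −0.32, −0.16 and −0.05 in the BD libraries of that cohort. All other libraries lay between −0.10 and 0.08. The higher genes at an unadjusted p under 0.05 had a median length of 4689 bases and the lower ones 2095, against 2804.5 over all genes tested. Without BD replicate 1 the medians of the shortest and longest bins were −0.08 and 0.07.

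**Figure D3:**
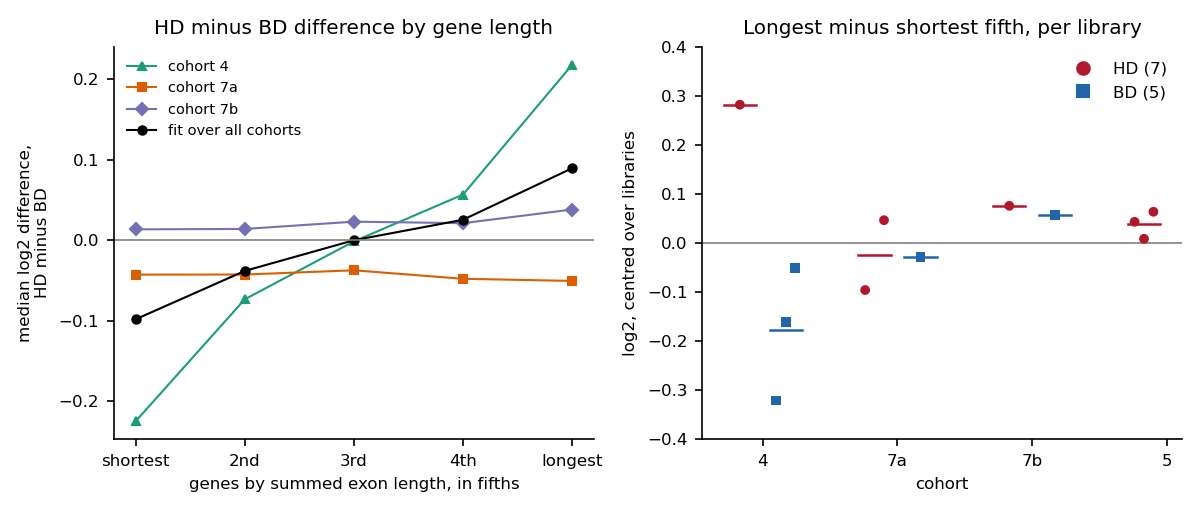
Left, median log2 difference of HD minus BD (vertical axis) by bin of summed exon length (horizontal axis), for each cohort that holds both categories and for the fit over all cohorts. Right, the longest minus the shortest bin in each library (log2, centred over libraries) by cohort, with HD circles left of BD squares and bars at the mean. The median ran from −0.22 to 0.22 in cohort 4 and stayed within −0.05 and 0.04 in cohorts 7a and 7b.

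The lists described next were read against all genes tested, of which 6331 were higher and 6383 lower in HD, with a median log2 difference of −0.00. No member of any list passed the test. The translation and respiration lists, made of short genes, lay below the median of all genes. Of 47 cytosolic ribosomal proteins, which build the ribosome, 46 were lower and 1 higher, with a median of −0.23, and 7 were lower at an unadjusted p under 0.05 (2.82% of all genes were). For 17 of the 47, every HD animal lay below every BD animal in each cohort, against 4.39% of all genes. Members of a list were measured in the same animals and are not independent, here and in the lists below. Such counts are therefore not separate results. The medians were −0.41, −0.20 and −0.03 in cohorts 4, 7a and 7b, and −0.18 in the fit without BD replicate 1. Without HD replicate 1, the only HD library of cohort 4, the median was −0.12, and with robust priors and array weights −0.076.

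RPL8, a protein of the large subunit, had 2266 to 2517 normalized reads in HD (median 2399) and 3431, 2873, 2857, 2750 and 2824 in BD. The ranges did not overlap, and the fold was 0.826 (0.716 to 0.954, unadjusted p 0.0139). RPS9, of the small subunit, had 1632 to 2811 in HD and 3936, 2497, 2532, 2783 and 2835 in BD, with the highest value in the shallow BD replicate 1. The summed ribosomal level was 146306 in the HD animal of cohort 4 and 223374, 160549 and 186975 in BD of that cohort. It was 146730 and 155638 in HD and 171541 in BD of cohort 7a, and 175855 in HD and 177817 in BD of cohort 7b. HD replicate 1 and BD replicate 1 stood at the ends of the length measure too, and the part of length in this list was not tested.

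Of 54 mitochondrial ribosomal proteins, 41 were lower and 13 higher (median −0.09). At an unadjusted p under 0.05, 4 of the 54 were lower, against 2.82% of all genes. They were MRPS26 (fold 0.746), MRPL13 (0.791), MRPS34 (0.835) and MRPL49 (0.824). Of 47 nuclear genes of oxidative phosphorylation, 39 were lower (median −0.09) and none had an unadjusted p under 0.05. The cohorts did not share this, since the median of the respiration list was −0.38 in cohort 4, 0.17 in cohort 7a and −0.00 in cohort 7b, and that of the mitochondrial ribosome list −0.30, 0.10 and −0.01. Without HD replicate 1 both medians were above 0, at 0.095 and 0.039, and without BD replicate 4 they were −0.24 and −0.17.

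A list of long neuronal transcripts, labelled nuclear-retained and drawn up as a sign of RNA quality, was on the other side. Neither retention in the nucleus nor RNA quality was measured here. All 14 members of that list were higher (median 0.18), and for 5 of the 14 every HD animal lay above every BD animal in each cohort, against 4.03% of all genes. The medians were 0.11, 0.41 and 0.12. CSMD1, a complement-regulating synaptic membrane protein, had a fold of 1.39 (1.14 to 1.70, unadjusted p 0.00389), LRP1B, a large lipoprotein receptor, 1.60, and PCDH9, a protocadherin, 1.26.

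**Figure D4:**
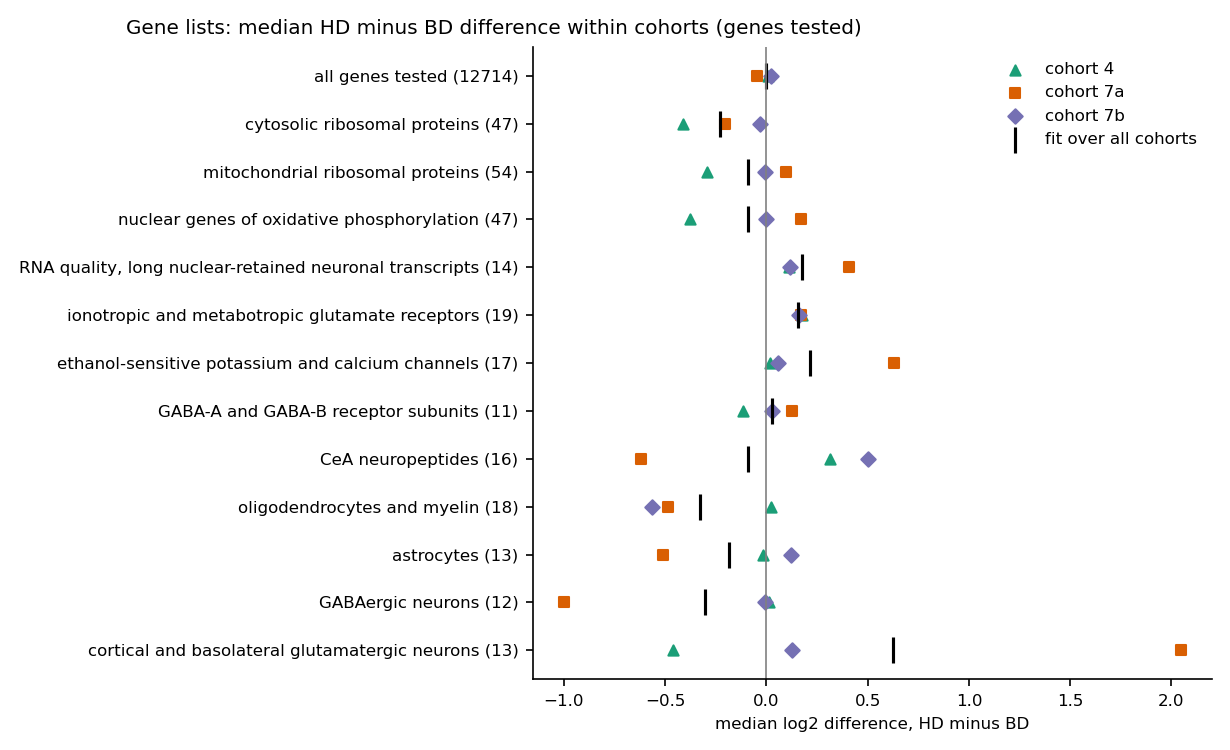
Median log2 difference of HD minus BD (horizontal axis) of the genes of 13 sets (vertical axis, genes tested in brackets), within cohorts 4, 7a and 7b (triangles, squares, diamonds) and in the fit over all cohorts (black bars). Glutamate receptors lay between 0.16 and 0.17 in all 3 cohorts, while the glutamatergic neuron list ran from −0.46 in cohort 4 to 2.05 in cohort 7a.

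Ionotropic and metabotropic glutamate receptors, which carry and tune fast excitation, were higher for 14 of 19 members, with a median of 0.16 and nearly the same median in cohorts 4, 7a and 7b (0.17, 0.17 and 0.16). The median was 0.095 with 4 marker scores over all 28 libraries and 0.055 with age in place of cohort. The long nuclear-retained list, drawn up as a sign of RNA quality, was higher as well (0.18). What it stands for, and its part in the glutamate receptor and channel lists, was not tested. At an unadjusted p under 0.05, 4 were higher, against 3.12% of all genes, and none was lower. GRIA2, the AMPA receptor subunit that sets calcium permeability, had 14635 to 19550 normalized reads in HD (median 15994) and 11616, 16382, 12631, 11890 and 12852 in BD. BD replicate 2 reached the HD range and the other 4 BD libraries lay below it. The fold was 1.37 (1.14 to 1.64, unadjusted p 0.00293), and the VHD libraries, at 7373 to 14502, lay below every HD library. GRIN2B, the NMDA receptor subunit GluN2B, a site of ethanol action, had 4464 to 6716 in HD (median 4791) and 4241, 4487, 3398, 3478 and 4297 in BD, a fold of 1.35 (1.08 to 1.69). Its log2 difference was 0.26, 0.91 and 0.06 in the 3 cohorts. GRIA3 (AMPA) had a fold of 1.65 and GRIK2 (kainate) 1.35, with a difference of 1.47 for GRIA3 in cohort 7a, where the HD libraries had the high glutamatergic sum, and of −0.12 for GRIK2 there.

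Potassium and calcium channels known to respond to ethanol were higher for 15 of 17 members (median 0.22), with medians of 0.02, 0.63 and 0.06 in cohorts 4, 7a and 7b. Without BD replicate 4, the only BD library of cohort 7a, the median was 0.085, without HD replicate 1 it was 0.37, and with robust priors and array weights 0.064. CACNA1A, the pore of P/Q-type calcium channels, had a fold of 1.17 (unadjusted p 0.0413), and KCNQ3 and KCNMA1, subunits of M-type and large-conductance potassium channels, 1.30 and 1.17. GABA-A and GABA-B receptor subunits did not lean, with 6 of 11 higher and a median of 0.03. Of 23 synaptic vesicle release genes, 15 were higher, with RIMS2, a scaffold of the release site, at a fold of 1.2 and CPLX1, a complexin, at 0.698. Of 16 postsynaptic density genes 8 were higher, and NLGN3, a neuroligin, had a fold of 0.801. Of 29 cadherins and protocadherins, 19 were higher (median 0.09), with CDH9 at 1.72.

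Myelin and oligodendrocyte genes were lower for 17 of 18 members, with a median of −0.33. At an unadjusted p under 0.05, 4 of the 18 were lower, against 2.82% of all genes. CNP, a myelin enzyme, had 3751 to 5798 normalized reads in HD (median 4742) and 5748, 5714, 6745, 6044 and 6970 in BD, so that the ranges touched at 5714 to 5798. The fold was 0.779 (0.621 to 0.977). MAG, a myelin adhesion protein, had 1373 to 2098 in HD (median 1528) and 1916, 2010, 2325, 2010 and 2542 in BD, with a fold of 0.742 (0.589 to 0.934). GJB1, a gap junction protein of myelin, had a fold of 0.766 and FA2H, which makes myelin sphingolipids, 0.668. MBP, the main basic protein of myelin, did not share the direction, with 3595 to 6901 in HD (median 3962), 3720, 4555, 6707, 3608 and 5507 in BD and a fold of 1.07 (0.770 to 1.49).

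The myelin difference was not seen in cohort 4. The median of the 18 genes was 0.02 there, −0.49 in cohort 7a and −0.57 in cohort 7b. The summed myelin level was 98609 in HD and 88330, 86700 and 112454 in BD of cohort 4, 62131 and 70762 in HD and 89395 in BD of cohort 7a, and 65191 in HD and 95204 in BD of cohort 7b. Without BD replicate 1 the median was −0.36 and 17 of 18 were again lower. It was −0.21 without HD replicate 7 or BD replicate 5, −0.22 without BD replicate 4 and −0.53 without HD replicate 1. With 4 marker scores as terms over all 28 libraries, the median was −0.0029. Since 1 of those scores was made from this same myelin list, that value is near 0 by construction and is no check of the list. The VHD mean of CNP was 8095 ± 1805 (n = 6), above every HD library.

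Astrocyte genes were lower for 11 of 13 (median −0.19), with a median of −0.02 in cohort 4, −0.51 in cohort 7a and 0.12 in cohort 7b, and of −0.014 without BD replicate 4. SLC1A2, the main glutamate transporter of astrocytes, was 1 of the 2 higher members, at a fold of 1.19, and GFAP, the astrocyte filament, had a fold of 0.873 (unadjusted p 0.637). Microglia genes were higher for 7 of 13 (median 0.01), endothelial and pericyte genes for 8 of 13 (0.03), where CD93 had a fold of 0.694, and oligodendrocyte precursor genes for 2 of 8 (−0.12). Choroid plexus, ependyma and meninges genes were higher for 3 of 9 (−0.14).

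The neuron lists had their widest differences in cohort 7a. GABAergic genes were lower for 10 of 12 (median −0.30), with medians of 0.01, −0.999 and −0.01 in cohorts 4, 7a and 7b. GAD2, a GABA-making enzyme, was named after its values were seen and had 2528 and 2719 normalized reads in HD and 8035 in BD of cohort 7a. Cortical and basolateral glutamatergic genes were higher for 10 of 13 (0.63), with medians of −0.46, 2.05 and 0.13. Cholinergic and forebrain genes were lower for 7 of 8 (−1.61), with medians of 1.87, −6.28 and −0.41. Without BD replicate 4 the medians of these 3 lists were 0.15, −0.13 and 1.061, each on the other side of 0. Striatal genes were higher for 5 of 13 (−0.14), pallidal, thalamic and habenular ones for 5 of 9 (0.03) and pan-neuronal ones for 8 of 14 (0.01), among which NEFH, a neurofilament, had a fold of 0.739.

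Peptides of the CeA showed no common direction, with 8 of 16 higher and 0 at an unadjusted p under 0.05. CRH, the stress peptide, had 43.1 to 109 normalized reads in HD (median 74.8) and 16, 46.4, 44.5, 58.5 and 74.4 in BD, a fold of 1.27 (0.699 to 2.31, unadjusted p 0.398). The value of 16 in BD replicate 1 stands for 2 reads, and without that library the fold was 1.12. PENK, the enkephalin precursor, had 1161 to 24439 in HD (median 12156) and 2974, 1293, 6370, 8343 and 23264 in BD. It ranged over more than 10-fold within each category, and the log2 differences were 1.2, −2.78 and −0.69. PDYN, the dynorphin precursor, had a fold of 1.02, somatostatin (SST) 1.02 and NPY 0.878. VIP had a fold of 2.16 (0.963 to 4.85).

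Receptors and identity genes of the CeA were higher for 12 of 21 (median 0.01). CRHR1, the CRH receptor, had a fold of 1.09 (unadjusted p 0.706), and the melanocortin receptor MC4R 0.563 (0.328 to 0.967, unadjusted p 0.0393). In the opioid and endocannabinoid list 6 of 15 were higher (−0.03), with the cannabinoid receptor CNR1 at 1.67 (0.937 to 2.99). Monoamine genes were higher for 7 of 19 (−0.10). The glucocorticoid receptor NR3C1 had 2128 to 2663 normalized reads in HD and 2389, 2548, 2676, 2722 and 2504 in BD, a fold of 0.956, and its target FKBP5 1.08. Of 17 glucocorticoid response genes 9 were higher (0.08), with HSD11B1, which regenerates active glucocorticoid, at 2.31 (1.01 to 5.31).

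Genes of ethanol and acetaldehyde metabolism were higher for 4 of 11 (median −0.05), and none had an unadjusted p under 0.05. ALDH2, the mitochondrial enzyme that clears acetaldehyde, had 2594 to 4266 normalized reads in HD and 3191, 2909, 4143, 3902 and 3582 in BD, with a fold of 1.01. Immediate early genes were higher for 6 of 18 (−0.12), clock genes for 9 of 15 (0.08), heat shock genes for 6 of 20 (−0.08) and cholesterol genes for 6 of 21 (−0.07). HSPB1, a small heat shock protein, had a fold of 0.623, and SREBF1, a regulator of lipid synthesis, 0.724. Innate immune genes were higher for 8 of 16 (0.01) and interferon and antigen presentation genes for 9 of 24 (−0.12), with TAP2, a peptide transporter, at 0.687 and IFI6 at 0.762.

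Of 25 chromatin modifiers, 13 were higher (median 0.02). HDAC11, a histone deacetylase, had 1679 to 1934 normalized reads in HD and 1812, 2075, 2266, 2194 and 2055 in BD, a fold of 0.837, and TET3, a DNA demethylase, a fold of 1.36. Of 17 growth factor and neurotrophin genes 6 were higher (−0.10), with IGF1 at 1.45 and IGF2 at 0.597. Of 23 matrix genes 10 were higher (−0.08), with COL4A1 and COL11A1, collagens of basement membrane and fibrils, at 1.64 and 1.97, and COL1A2 and COL3A1 at 0.643 and 0.749. Of 11 histone genes 3 were higher (−0.09).

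At the level of single exons, 0 of 106643 exons (0%) passed by limma, the lowest adjusted p was 0.916, and 5371 (5.04%) had an unadjusted p under 0.05. Exon values are normalized reads rounded to whole numbers at positions as the exon table gives them, with no build named. The exon with the smallest p was in TTYH1, a membrane protein of astrocytes and neural progenitors (chr19:49185519-49185630). It had 91 normalized reads in HD and 192, 203 and 244 in BD of cohort 4, 86 and 107 in HD and 189 in BD of cohort 7a, and 121 in HD and 224 in BD of cohort 7b. The HD animals of cohort 5 had 151, 196 and 246, so the categories overlapped. The exon lay at a fold of 0.486 and the whole gene at 0.831. Further exons with a small p were in CSMD3, OSBPL6, SMARCA2 and MYCBP2 (folds of 1.60 to 2.22) and in ATP6V1D, VPS51, NIPAL3 and SMAD2 (folds of 0.224 to 0.636).

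Exon usage asks whether the exons of a gene differ from each other in their HD vs BD difference. By limma's diffSplice F test, 3 of 9362 genes (0.0320%) had an adjusted p under 0.05, and 208 (2.22%) an unadjusted p under 0.05. These 3 were ATP6V1D and DDX10 (adjusted p 3.92e-05 each) and HSDL1 (adjusted p 0.0383). The test uses 1 spread per gene, pooled over its exons, and takes the exons of an animal as independent. Its p therefore does not measure how far the leading exon varied between animals. Tested as a single exon by limma, the leading exon of ATP6V1D had an unadjusted p of 0.000455 and an adjusted p of 0.916.

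ATP6V1D is the D subunit of the vacuolar proton pump. Its difference lay in 1 of 9 exons, the last by position (chr14:129291574-129291735, 162 bases). HD libraries had 43, 247, 251, 44, 54, 52 and 45 normalized reads over it, against 257, 262, 223, 224 and 157 in BD. The values formed a low level of 43 to 54 and a high level of 157 or more, with 5 of 7 HD animals at the low level, 4 of them the HD animals that share a cohort with BD, and no BD animal there. The other 8 exons together had 3967 to 5392 in HD and 3762 to 5588 in BD. Of the LD libraries 1 of 10 (25) and of the VHD libraries 2 of 6 (29 and 48) lay below the lowest BD library.

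DDX10, an RNA helicase of ribosome assembly, differed in the 16th of 18 exons by position (chr11:101001525-101001581, 57 bases). HD libraries had 2, 22, 3, 8, 6, 9 and 2 normalized reads and BD libraries 24, 24, 28, 30 and 25. All 7 HD libraries lay below all 5 BD libraries, and the other exons had 597 to 798 in HD and 593 to 784 in BD. The counts are small, since the 24 of the shallow BD replicate 1 stands for 3 reads. Of the LD libraries 3 of 10 and of the VHD libraries 4 of 6 lay below the lowest BD library.

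HSDL1, a dehydrogenase-like protein of mitochondria, differed in the 5th of 6 exons (chr16:68666537-68666598, 62 bases), with 43, 8, 11, 12, 49, 31 and 18 normalized reads in HD and 24, 38, 20, 6 and 9 in BD. The ranges overlapped, and HD was higher within each of cohorts 4, 7a and 7b. The next genes by p did not pass. Among them KCTD2, an adaptor of ubiquitin ligases (adjusted p 0.0966), had 61 to 114 normalized reads over exon 3 of 6 by position (chr17:68454080-68454171) in HD and 136, 126, 132, 131 and 125 in BD, with no overlap. An exon of ASAH1, acid ceramidase, had 3 to 18 in HD and 64, 58, 69, 59 and 5 in BD, and the adjusted p was 0.0966. FEZ2 (0.0730), PREPL (0.106) and ACAD9 (0.106) followed.

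**Figure D5:**
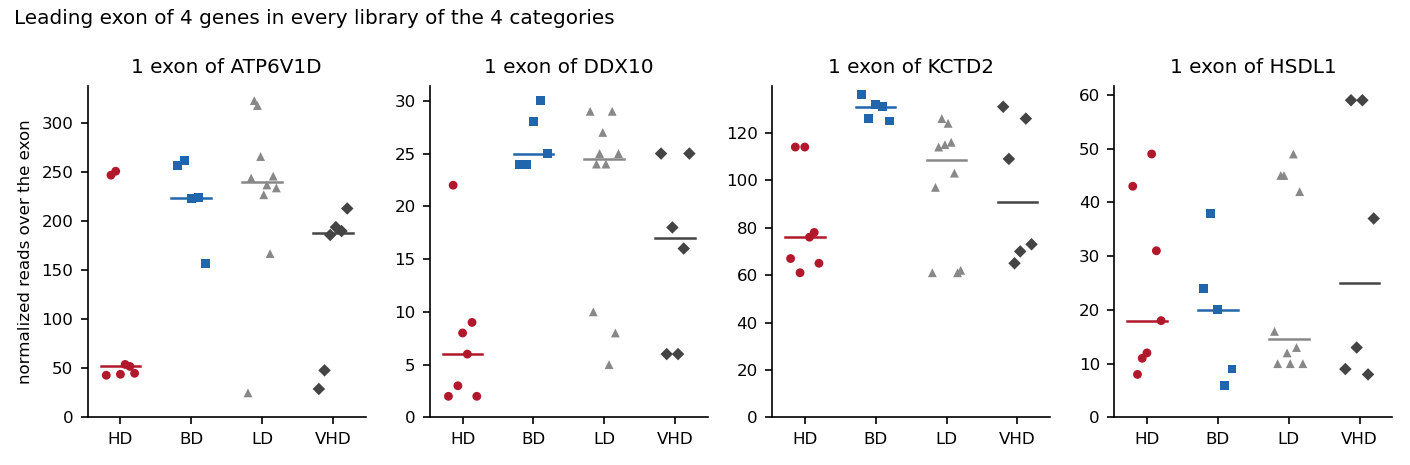
Normalized reads over 1 exon each of ATP6V1D, DDX10, KCTD2 and HSDL1 (vertical axes) in every library of HD, BD, LD and VHD (left to right on the horizontal axes), with bars at the median. ATP6V1D had 5 of 7 HD libraries at 43 to 54 and all 5 BD libraries at 157 or more, and low values also occurred in LD and VHD.

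These calls depended on settings and on single libraries. By limma's diffSplice with a pseudocount of 8, HSDL1 had an adjusted p of 0.0595, and it did not pass with all 28 libraries. With a filter of 50, neither DDX10 nor HSDL1 passed, but this filter removed the exons that carried their differences. Over the 12 libraries those exons reached at most 30 normalized reads for DDX10 and 49 for HSDL1. That setting therefore could not test their differences. ATP6V1D, whose exon reached 262, passed in each of these settings. Without HD replicate 1, the adjusted p by limma's diffSplice was 0.0563 for ATP6V1D and 0.534 for DDX10. HSDL1 lost its call without any 1 of HD replicates 2 to 7 or BD replicates 4 and 5 (adjusted p 0.0715 to 1). Without the shallow BD replicate 1, 36 genes passed, with all 3 among them, and CTNNB1, OS9, FBXO31 and KCTD2 were the next by p.

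The HD vs BD difference was also compared between cohorts 4, 7a and 7b. No gene passed limma's F test of the category by cohort interaction (0 of 12714, 0%, lowest adjusted p 0.326), and 1538 genes (12.1%) had an unadjusted p under 0.05. HTR1D, a serotonin receptor, had log2 differences of 2.85 in cohort 4, −2.99 in cohort 7a and −0.24 in cohort 7b. It had 289 normalized reads in HD and 48.1, 22.2 and 56.3 in BD of cohort 4, 22.2 and 20.0 in HD and 174 in BD of cohort 7a, and 305 in HD and 359 in BD of cohort 7b. The HD animals of cohort 5 had 422, 609 and 390. Its low libraries included the 2 HD libraries with the high glutamatergic sum. PAK6, a kinase of neurons, ran the opposite way (−0.99, 1.04 and −0.07).

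CD4, a receptor of T cells and myeloid cells, had 265 and 156 in HD and 28.8 in BD of cohort 7a, but 43.5 in HD and 398 in BD of cohort 7b, so that 1 animal of each category was low. ZBED6 had 1087 and CC2D2A, a protein of cilia, 1266 normalized reads in the HD animal of cohort 4, above the other 11 libraries (249 to 605 and 441 to 700). The 5 genes had adjusted p-values of 0.326 by limma.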

How the data were processed

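Per the labels' protocols, ribosomal RNA was removed and stranded libraries were made from CeA blocks of 28 animals. CASAVA, FastQC, STAR 2.3.0e and edgeR are named in the submitters' processing notes. For the genome build, the annotation and the use of strand in counting, no source used here gives an entry. The authors deposited a gene table and an exon table. The deposited gene values are a normalized signal, reads times 1 factor per library, and 100% of values came out as whole reads within 0.02. The deposited exon values are a score, the same quantity rounded by the authors to whole numbers. Each table held 30 columns, of which 2 were not used because they matched no sample described in the labels.

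Genes with at least 10 normalized reads in at least 5 of the 12 libraries were tested with limma 3.58.1 (R 4.3.3) on log2(value + 1), with cohort as a term and Benjamini-Hochberg adjustment at 0.05. Folds are on that scale, which understates changes of low genes. Exons were tested likewise, exon usage with limma's diffSplice F test (at least 3 exons), and differences between cohorts with an F test of the interaction. edgeR 4.0.16 and DESeq2 1.42.0 on recovered reads, other filters, pseudocounts, scalings and sets of libraries, and each library left out, were alternatives. The scripts were tested on simulated data. Of same-group library pairs, none agreed within counting noise. A floor of 3 reads equals 1.96 to 24.1 normalized reads and covers counting error only.

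Named genes are the 12 per direction with the smallest p among genes averaging at least 50 normalized reads, 6 per direction without BD replicate 1, up to 4 per list and 11 fixed genes, and some items that the rule names are not reported here. The members and the 39 lists were chosen with earlier results of these data known. The labels give 1 library per animal, and replicate numbers follow accession order.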

Additional observations from a re-analysis of the deposited data

Results flagged for a closer look

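In 96 groups of values (a gene or library measure in HD or in BD), 10 had 1 library far from the rest by Dixon's test at 95% on the log2(value + 1) scale, and chance gives about 5% of groups. HD replicate 1, the HD animal of cohort 4, was the high one for 5 genes, with 2155 normalized reads for RLF, 4047 for LYST, 6287 for CSMD3, 1281 for ZNF407 and 1266 for CC2D2A. That library also had the highest long minus short gene level of the 12. HD replicate 2 was low for CD9, at 388. In BD, the shallow replicate 1 was high for RPS9, at 3936, and low in reads, at 1910514. BD replicate 5 was low for CRHR1, at 78.8, and BD replicate 4 was low for CD4, at 28.8.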

How the results depend on the processing

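No paired analysis was possible because replicate numbers follow accession order and pair no animals. Over 29 alternative settings of the gene test, the number of genes past the threshold was 1 with cohorts 4, 7a and 7b only (SIRPB1), 1 with DESeq2 (PTGDS), 0 to 1 when a library was left out (SIRPB1 without HD replicate 3), and 0 otherwise. Both SIRPB1 calls came from settings without HD replicate 3, the single HD library at the BD level. Genes at an unadjusted p under 0.05 numbered 442 to 1734, and 542 to 1396 with a library left out. For exons, 0 to 1 passed when a library was left out. The interaction gave 0 in every setting. For exon usage, 4 genes passed with a pseudocount of 0.5, 2 with 8, 1 with a filter of 50, 23 with all 28 libraries, 100 with the Simes test, and 2 to 36 with a library left out (36 without BD replicate 1, 21 without BD replicate 4, 16 without HD replicate 7 or BD replicate 5, 8 without BD replicate 2, 5 without BD replicate 3). The cause was not tested.

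None of the 28 leading genes changed direction under these settings. They were picked by their small p in fits of these same libraries, so a change of direction was unlikely from the start. Leaving out an HD animal of the cohort without BD animals could not change a fold at all. The unchanged direction is therefore no independent check of these genes. Of 5312 values of named genes, 141 changed sign, 4 of them at an unadjusted p under 0.05 in either fit. With robust priors and array weights NPY had a log2 difference of 0.44, and without the cohort term NLGN2 had 0.11, CDH12 −0.042 and COL3A1 0.14. Over the 38 lists, 150 of 1102 medians lay on the other side of 0 from the reported one, most often for innate immune signalling (12 of 29 settings), microglia (11) and striatal neurons (10). The lists of cytosolic ribosomal proteins, glutamate receptors, ethanol-sensitive channels, long nuclear-retained transcripts, heat shock proteins and histones kept 1 side in all 29. Since the settings reuse the same libraries and many could hardly move a median, this is no independent check of the lists either. Some medians came near 0, at 0.020 for the channels in cohort 4 alone and −0.0037 for heat shock proteins without the cohort term. Depth limits low genes most in BD replicate 1, where 3 reads equal 24.1 normalized reads.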
